A study of Mus musculus with 16 samples.

Results

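The genes described are 10 markers of tissue-resident macrophages, Lyve1, Timd4, Folr2, Cd163, Gas6, Cbr2, Vsig4, Igfbp4, Pf4 and Sepp1, among 24278 genes tested. They were taken by name from the arrays' own gene symbols, each through its brightest probe, and all 10 passed the filter on dim probes. They were followed in macrophages sorted from mouse pancreas on 16 one-colour microarrays, to ask whether macrophages without the YFP reporter carried these markers in either tissue. The groups were YFP- macrophages of pancreatic tumors (5 arrays), YFP+ macrophages of pancreatic tumors (5 arrays), YFP- macrophages of normal pancreas (3 arrays) and YFP+ macrophages of normal pancreas (3 arrays). The series lists wild-type, KPC and FLT3-CRE/LSL-YFP mice, KPC being a genetic model of pancreatic ductal adenocarcinoma. The sample labels give no genotype, so the alleles behind each array are not known here. The mice were females of 8 to 10 weeks, with C57/B6 given as their background. The treatment note speaks of implanted tumors for the normal samples as well, and which model gave each tumor sample is not stated. In a FLT3-CRE/LSL-YFP mouse, YFP is switched on in cells that expressed the cytokine receptor Flt3 or descend from such cells. The labels do not say that arrays of a group came from separate animals, so p-values measure only the spread between these samples.

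Resident macrophages are long-lived cells of a tissue, part of which are seeded before birth and renew themselves locally, while others are replaced from blood monocytes. Flt3 is expressed by multipotent progenitors of the bone marrow, so that in such reporter mice most monocytes and their progeny carry YFP and macrophages of embryonic origin largely do not. The markers serve clearance and scavenging in the main. Lyve1 binds hyaluronan, Timd4 is a phosphatidylserine receptor for dying cells, Folr2 is folate receptor beta, Cd163 takes up haemoglobin bound to haptoglobin, and Vsig4 is a complement receptor. Gas6 is a secreted ligand that bridges phosphatidylserine to the receptors Tyro3, Axl and Mertk. Igfbp4 is a secreted binding protein for insulin-like growth factors, Pf4 is a chemokine best known from platelets, Sepp1 (now Selenop) is the secreted selenium carrier selenoprotein P, and Cbr2 is a carbonyl reductase.

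Folr2, Cbr2 and Cd163 followed each other most closely over the arrays, and their 60-base probes are printed to show that they measured different sequences. The longest run of bases that any 2 of these probes shared was 6. Per the file headers, their positions on mm9 were chr7:108988771-108988830 on the minus strand for Folr2, chr11:120592059-120592118 on the minus strand for Cbr2 and chr6:124270436-124270495 on the plus strand for Cd163. Whether a probe lies in coding or untranslated sequence was not determined.
Folr2 probe: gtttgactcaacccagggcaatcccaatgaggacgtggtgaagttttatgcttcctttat
Cbr2 probe: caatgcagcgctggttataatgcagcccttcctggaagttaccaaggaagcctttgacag
Cd163 probe: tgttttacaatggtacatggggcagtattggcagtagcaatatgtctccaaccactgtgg

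Since Folr2 and Cbr2 moved together most closely, their promoter windows are shown as well, from RefSeq on GRCm38.p6, each 300 bases long and on the minus strand. The Folr2 window is the lower in coordinates of its 2 windows, chr7:101845282-101845581, and the Cbr2 window is chr11:120731972-120732271. Capitals mark TGCTGA on either strand, the core of the DNA element bound by large Maf factors, of which Maf is prominent in macrophages.
Folr2 promoter: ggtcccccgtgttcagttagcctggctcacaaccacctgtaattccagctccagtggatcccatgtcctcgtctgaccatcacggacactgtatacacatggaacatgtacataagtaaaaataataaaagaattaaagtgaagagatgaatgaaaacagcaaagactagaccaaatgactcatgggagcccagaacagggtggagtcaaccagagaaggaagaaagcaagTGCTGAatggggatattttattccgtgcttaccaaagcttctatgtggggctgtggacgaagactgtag
Cbr2 promoter: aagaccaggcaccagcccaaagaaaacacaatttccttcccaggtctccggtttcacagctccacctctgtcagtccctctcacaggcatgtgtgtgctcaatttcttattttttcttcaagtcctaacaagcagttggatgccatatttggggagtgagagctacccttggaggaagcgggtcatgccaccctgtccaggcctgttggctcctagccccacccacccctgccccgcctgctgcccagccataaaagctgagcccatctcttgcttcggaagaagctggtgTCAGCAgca
The letters TGCTGA, searched on both strands, occurred in a window of 4 of the 9 members with a window (Timd4, Folr2, Cbr2 and Vsig4), and in 21.7% of the 27025 genes with a window. A match describes the letters and is not evidence of binding.

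Signals are given as log2 of the processed intensity relative to the array's own 75th percentile, so that 0 is that percentile and 1 unit is a doubling. Levels of different genes are not set against each other, since probes differ in how brightly they bind. The 75th percentile itself lay between 2167 and 3388 intensity units, 64.9 to 75.4% of spots were well above background, and no spot was saturated. The members were well above background in 158 of their 160 measurements, and the exceptions were Vsig4 on both arrays titled 23912, from normal pancreas. The number that opens each sample title was shared by 1 YFP- and 1 YFP+ array, and the labels do not say what it stands for. Arrays 23912 stood apart from the other normal arrays: array 23912 was lowest for 10 of 10 members among the 3 normal YFP- arrays and for 9 of 10 among the 3 normal YFP+ arrays. Their summed T and NK cell markers were also the highest of their groups, at 2.13 in normal YFP- and 3.38 in normal YFP+ cells. The same held for summed endothelial, platelet, mast cell and neutrophil markers, while summed fibroblast markers were lowest on 23912 in both groups. Among the tumor YFP- arrays, 23548 and 23550 each were lowest or second lowest for 9 of 10 members. Macrophage identity genes (14 genes, Csf1r, Adgre1 and Cd68 among them) averaged 4.48 in tumor YFP- and 4.45 in tumor YFP+ cells, and 4.49 in both YFP- and YFP+ cells of normal pancreas, with every array between 4.09 and 4.75. In sorted bulk samples such as these, fewer cells that carry a marker and less of its RNA per cell cannot be told apart.

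For most resident markers both normal groups had higher means than both tumor groups. In 9 of 10 members the group means ran, from high to low, normal YFP-, normal YFP+, tumor YFP- and tumor YFP+, an order that 13% of all genes tested had. Between the middle groups of this order, tumor YFP- arrays lay wholly below normal YFP+ arrays for 5 of 10 members (Lyve1, Timd4, Folr2, Gas6 and Cbr2), against 10.2% of all genes. The ranges overlapped for Cd163, Igfbp4, Pf4 and Sepp1. Between YFP- and YFP+ arrays of the same tissue, ranges overlapped for 9 of 10 members in tumors, where 2.85% of all genes lay wholly higher in YFP- arrays, and for 10 of 10 in normal pancreas, where 13.3% of all genes did not overlap. Vsig4 had another order, with means of 0.35 in tumor YFP-, -1.42 in tumor YFP+, -1.95 in normal YFP- and -2.56 in normal YFP+ cells, and its 4 ranges overlapped.

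**Figure D1:**
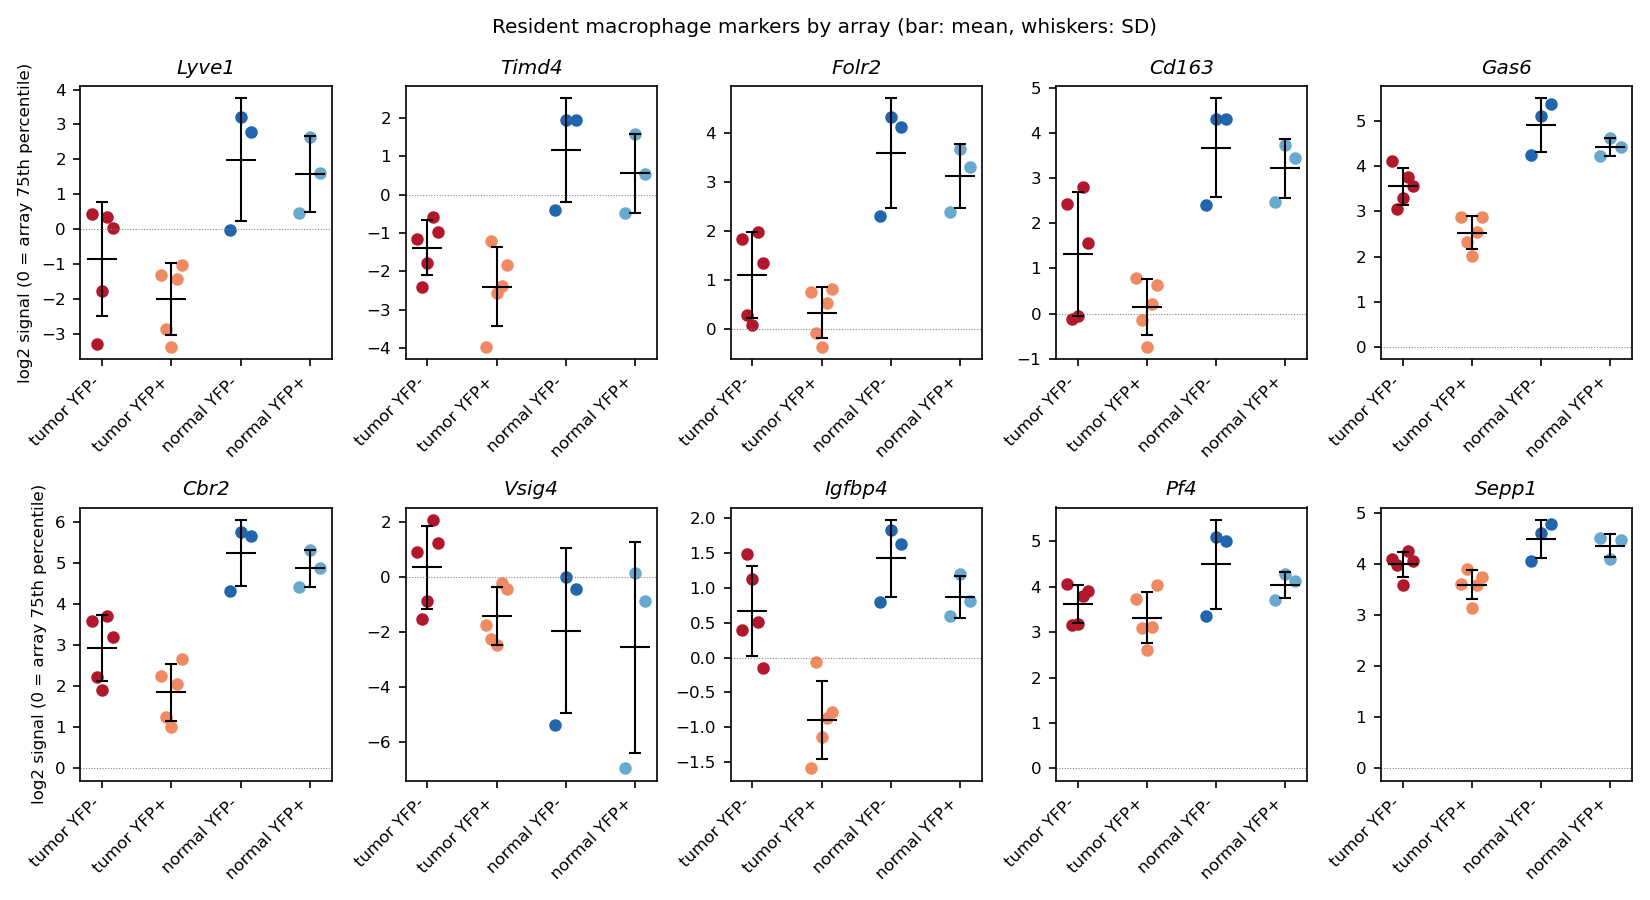
Log2 signal (vertical axis, 0 at each array's 75th percentile) of the 10 resident markers in macrophages of the 4 groups, tumor left and normal pancreas right, YFP- before YFP+ in each. Points are arrays, bars are means and whiskers are SDs. Both normal means lie above both tumor means for every marker but Vsig4. Gas6 is the only marker whose tumor YFP- arrays all lie above the tumor YFP+ arrays.

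Within tumors, YFP- macrophages had more Igfbp4 and Gas6 than YFP+ macrophages, and the other 8 markers did not pass the test. These 2 calls of 10 stand beside 2.4% of all genes called in either direction (1.64% higher). The difference was positive for 10 of 10 members with a median of 1.05, against a median of -0.0021 over all genes. Tumor values are listed in the order of arrays 23547, 23548, 23550, 23551 and 23677.

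Igfbp4, the growth factor binding protein, stood at 0.40, 1.49, 1.13, 0.51 and -0.15 in tumor YFP- arrays, against -1.59, -0.062, -1.14, -0.87 and -0.78 in tumor YFP+ arrays. The YFP- values were higher apart from the lowest YFP- array, which lay just under the highest YFP+ array. Its mean was 0.67 ± 0.64 in YFP- and -0.89 ± 0.56 in YFP+ cells (SD, n = 5 each), a 2.95-fold difference (log2 difference 1.56 ± 0.34 SE, limma adjusted p = 0.0199). Without number 23547, 23550 or 23551 this call was lost, with adjusted p of 0.0857, 0.14 and 0.0855.

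Gas6, the bridging ligand, stood at 4.12, 3.05, 3.29, 3.76 and 3.56 in tumor YFP- arrays, against 2.87, 2.33, 2.02, 2.54 and 2.87 in tumor YFP+ arrays. All 5 YFP- arrays were above all 5 YFP+ arrays, as for 2.85% of all genes. The mean was 3.56 ± 0.42 in YFP- and 2.53 ± 0.37 in YFP+ cells (SD, n = 5 each), a 2.04-fold difference (log2 difference 1.03 ± 0.26 SE, limma adjusted p = 0.049). The call lies at the threshold and was lost when any 1 of the 5 numbers was left out (adjusted p 0.0822 to 0.211).

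Cd163, Folr2 and Cbr2 had differences of similar size and wider spread. Cd163 stood at 2.42, -0.12, -0.06, 2.80 and 1.55 in tumor YFP- arrays, against 0.79, -0.14, -0.74, 0.21 and 0.63 in tumor YFP+ arrays. Arrays 23547, 23551 and 23677 of the YFP- group were above every YFP+ array, and arrays 23548 and 23550 were within the YFP+ range. The log2 difference was 1.17 ± 0.59 (SE, limma adjusted p = 0.541), with a 95% interval of -0.098 to 2.43. Folr2 had the same split, with 1.83, 0.29, 0.091, 1.98 and 1.35 in tumor YFP- arrays, against 0.75, -0.071, -0.36, 0.54 and 0.82 in tumor YFP+ arrays. Its log2 difference was 0.77 ± 0.47 (SE, limma adjusted p = 0.661), and that of Cbr2 was 1.08 ± 0.43 (SE, limma adjusted p = 0.348).

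Lyve1, the hyaluronan receptor, ranged from -3.29 to 0.43 in tumor YFP- and from -3.37 to -1.03 in tumor YFP+ arrays, and Timd4 from -2.40 to -0.59 in tumor YFP- and from -3.97 to -1.21 in tumor YFP+ arrays. Both had the same split as Cd163. YFP- arrays 23547, 23551 and 23677 were above every YFP+ array, and arrays 23548 and 23550 were within the YFP+ range. Means in tumor YFP- and tumor YFP+ cells were -0.85 and -2.00 for Lyve1, and -1.38 and -2.39 for Timd4. Vsig4 had the largest difference of the members, 1.77 ± 1.31 (SE, limma adjusted p = 0.749), with a range of -1.54 to 2.07 in tumor YFP- and of -2.48 to -0.21 in tumor YFP+ arrays. The SE of Vsig4 draws on the spread of all 4 groups. Its SD reached 3.84 among normal YFP+ arrays and 2.99 among the normal YFP- ones. Each of these sets includes an array 23912 on which Vsig4 was not well above background. Tumor SDs were smaller, at 1.51 (YFP-) and 1.04 (YFP+), so the test is a weak one for Vsig4 in tumors. The secreted Pf4 and Sepp1 had the smallest differences, 0.30 ± 0.35 and 0.39 ± 0.19 (SE, limma adjusted p 0.866 and 0.504).

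Markers of cells other than macrophages also differed between the tumor populations. Of 14 fibroblast and stellate cell markers tested, 11 were higher in tumor YFP- cells with a median difference of 3.99, and their summed signal was 6.50 to 7.09 in YFP- arrays, against 3.14 to 4.03 in YFP+ arrays. Ductal epithelial markers were higher for 6 of 10 (summed signal 4.08 to 4.94 in YFP- and 2.30 to 2.79 in YFP+ arrays), mast cell and basophil markers for 5 of 6 (3.16 to 5.68 in YFP- and 1.09 to 2.54 in YFP+ arrays) and acinar markers for 5 of 15 (3.33 to 4.32 in YFP- and 2.56 to 3.74 in YFP+ arrays). Markers of B and plasma cells were lower for 4 of 10 (3.19 to 4.68 in YFP- and 5.38 to 6.17 in YFP+ arrays). Lum, a matrix proteoglycan of fibroblasts, was well above background on 5 of 5 YFP- and 0 of 5 YFP+ arrays, at least 10.6-fold higher in YFP- cells. Fibroblasts are known to express Igfbp4 and Gas6, and the part of these markers in the Igfbp4 and Gas6 results was not tested. Neutrophil markers were positive for 9 of 9 (median 0.93) with summed signals that did not overlap, 5.64 to 6.24 in YFP- and 5.15 to 5.54 in YFP+ arrays. None of them passed the limma test, and 3 of 9 had an unadjusted p under 0.05. Dendritic cell markers were negative for 8 of 8 (median -0.67, summed signal 1.90 to 3.30 in YFP- and 2.55 to 3.79 in YFP+ arrays), with none past the limma test and 4 of 8 at an unadjusted p under 0.05. No marker passed the test among 14 of endothelium, which can express Lyve1, or among 11 of platelets, which carry Pf4. For endothelium 1 of 14 had an unadjusted p under 0.05, and for platelets 0 of 11. Among all 24278 genes, 2512 had an unadjusted p under 0.05 in this comparison.

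Among 32 other genes known from resident macrophages, 2 were higher in tumor YFP- than in tumor YFP+ cells and none was lower, with 25 of 32 differences positive and a median of 0.37. Over all 24278 genes, 398 (1.64%) were called higher and 12080 differences were positive. Gata6, a transcription factor of cavity macrophages, had means of -0.88 in YFP- and -3.07 in YFP+ cells (log2 difference 2.19 ± 0.46 SE, limma adjusted p = 0.0173). Colec12, a scavenger receptor also known from endothelium and stromal cells, was well above background on 4 of 5 YFP- and 0 of 5 YFP+ arrays, which gives YFP- cells at least a 2.03-fold higher level (limma adjusted p = 0.0388). The count of 2 became 0 without any 1 of arrays 23547, 23550, 23551 and 23677.

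In normal pancreas none of the 10 markers passed the test between YFP- and YFP+ macrophages, where 0.0206% of all genes (5 of 24278) did. An unadjusted p under 0.05 was found for 0 of 10, against 1856 of all genes. The difference was positive for 10 of 10 with a median of 0.46, against a median of 0.11 over all genes, of which 14772 were positive. Adjusted p ranged from 0.792 for Gas6 to 0.935 for Vsig4 in the limma fit. Group means were 3.59 in YFP- and 3.12 in YFP+ cells for Folr2, and 5.24 in YFP- and 4.86 in YFP+ cells for Cbr2.

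In the order of arrays 23912, 23916 and 23917, Folr2 stood at 2.30, 4.33 and 4.14 in normal YFP- arrays, against 2.39, 3.67 and 3.30 in normal YFP+ arrays. Cd163 stood at 2.41, 4.30 and 4.30 in normal YFP- arrays, against 2.47, 3.72 and 3.44 in normal YFP+ arrays. Gas6 stood at 4.24, 5.12 and 5.37 in normal YFP- arrays, against 4.23, 4.62 and 4.42 in normal YFP+ arrays. For each of these, array 23912 was low in both populations, and the other 2 YFP- arrays were above every YFP+ array. The 95% interval of the difference was -0.83 to 1.76 for Folr2, -1.17 to 2.09 for Cd163 and -0.22 to 1.19 for Gas6, so that a doubling in YFP- cells lay within each. Leaving out 23912 gave 0 calls among the members as well.

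Markers of several other cell types lay the same way in this comparison, and those of others did not. Differences were positive for 13 of 14 fibroblast markers (median 1.48), 15 of 15 acinar markers (0.83), 10 of 10 ductal markers (0.54), 11 of 11 platelet markers (0.47) and 11 of 14 endothelial markers (0.63), and none passed the limma test. An unadjusted p under 0.05 was found for 6 fibroblast, 6 acinar, 2 ductal, 0 platelet and 4 endothelial markers, and for 1856 of all 24278 genes. Differences were negative for 7 of 8 dendritic cell markers (median -1.04), 6 of 8 T and NK cell markers (-0.82) and 6 of 9 neutrophil markers (-0.81). None of these passed the limma test either, with 4, 2 and 1 at an unadjusted p under 0.05. B and plasma cell markers were positive for 6 of 10 and mast cell markers for 4 of 6. In the order of arrays 23912, 23916 and 23917, the summed fibroblast signal was 3.35, 5.71 and 6.59 in normal YFP- arrays, against 3.85, 4.65 and 3.93 in normal YFP+ arrays. The summed acinar signal was 9.04, 9.66 and 10.2 in normal YFP- arrays, against 9.08, 8.71 and 9.19 in normal YFP+ arrays. For both sums, as for Folr2, Cd163 and Gas6, the YFP- arrays 23916 and 23917 were above every YFP+ array and the YFP- array 23912 was not. Prox1 and Mmrn1, known from lymphatic endothelium, which also expresses Lyve1, were well above background on 3 of 3 YFP- and 0 of 3 YFP+ arrays, at least 2.77-fold and 3.94-fold higher in YFP- cells, though neither passed the test (limma adjusted p 0.476 and 0.16). Flt4 and Reln of the same endothelial list did not follow them. Flt4 was well above background on 2 of 3 arrays of each population, and Reln on 2 of 3 YFP- and 3 of 3 YFP+ arrays. The part of these cells in the differences of the resident markers was not tested.

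Arrays were run on 4 slides of 4. In normal pancreas the 10 differences were all positive on slide 2, where the YFP+ array was 23912, and all negative on slide 3, where the YFP- array was 23912. In tumors they were positive for 10 of 10 on slides 1, 3 and 4 and for 3 of 10 on slide 2, which held the YFP- array 23548 and the YFP+ array 23677. With slide as a block, Gas6 and Igfbp4 kept their calls in tumors.

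The difference between YFP- and YFP+ cells was not shown to differ between tissues for any marker. The difference in tumors minus that in normal pancreas passed the test for 0 of 10 members, where 0.103% of all genes did. At an unadjusted p under 0.05 there were 0 of 10 members and 1446 of 24278 genes. The values below are for the same difference. It was 1.01 ± 0.55 for Igfbp4 (SE, 95% interval -0.16 to 2.18, limma adjusted p = 0.882) and 0.54 ± 0.42 for Gas6 (SE, 95% interval -0.35 to 1.43, limma adjusted p = 0.922). It was positive for 9 of 10 with a median of 0.62, against -0.05 over all genes.

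**Figure D2:**
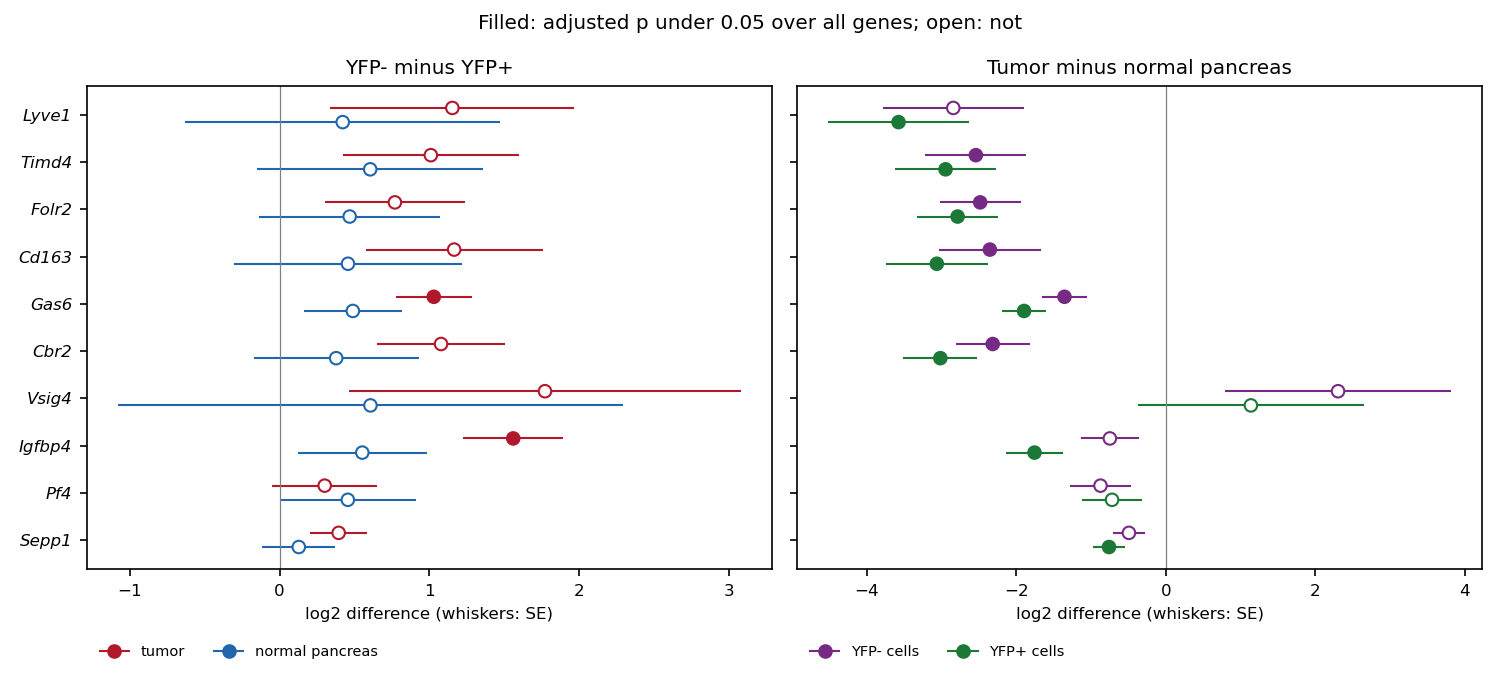
Log2 differences of the 10 markers with SE whiskers, YFP- minus YFP+ in tumor and normal pancreas (left) and tumor minus normal pancreas in YFP- and YFP+ cells (right); filled points have an adjusted p under 0.05. Left, all points lie above 0 and Gas6 and Igfbp4 in tumors are filled; right, 9 of 10 markers lie below 0 in each population, with 5 filled for YFP- and 8 for YFP+ cells.

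Between tissues, YFP- macrophages of tumors had less Timd4, Folr2, Cd163, Gas6 and Cbr2 than YFP- macrophages of normal pancreas. These 5 of 10 members, all lower, compare with 16.1% of all genes called in either direction (8.46% lower). The median difference was -1.84, against -0.19 over all genes.

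Folr2 stood at 1.83, 0.29, 0.091, 1.98 and 1.35 in tumor YFP- arrays, against 2.30, 4.33 and 4.14 in normal YFP- arrays. No tumor array reached the lowest normal array, and Folr2 was 5.59-fold lower in tumors (log2 difference -2.48 ± 0.54 SE, limma adjusted p = 0.00585). Cbr2, the carbonyl reductase, stood at 3.59, 2.23, 1.91, 3.70 and 3.21 in tumor YFP- arrays, against 4.32, 5.75 and 5.66 in normal YFP- arrays. The groups again did not overlap, as 10.6% of all genes did not in the lower direction, and the log2 difference was -2.32 ± 0.49 (SE, limma adjusted p = 0.0051) and had the same sign with its second probe, at -2.58. Timd4 stood at -1.16, -2.40, -1.79, -0.59 and -0.97 in tumor YFP- arrays, against -0.40, 1.93 and 1.94 in normal YFP- arrays. Its tumor arrays also lay below all 3 normal arrays, with a log2 difference of -2.54 ± 0.68 (SE, limma adjusted p = 0.0193). Gas6 differed by -1.36 ± 0.29 (SE, limma adjusted p = 0.0058) without overlap, and Cd163 by -2.35 ± 0.68 (SE, limma adjusted p = 0.0298) with overlap at normal array 23912.

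Lyve1 differed by -2.84 ± 0.94 (SE, limma adjusted p = 0.0539), just above the threshold, with tumor YFP- arrays between -3.29 and 0.43 and normal YFP- arrays at -0.012, 3.21 and 2.79. The secreted Igfbp4, Pf4 and Sepp1 had smaller differences of -0.75, -0.87 and -0.49 (limma adjusted p 0.207, 0.16 and 0.144). The count of 5 became 7 without number 23912, with Lyve1 and Pf4 added. It became 3 without 23550, 2 without 23916 (Gas6 and Cbr2) and 2 without 23917 (Folr2 and Cbr2). Within slides that held both groups, differences were negative for 10 of 10 members on slide 2 (median -2.88), 9 of 10 on slide 4 (-1.66) and 7 of 10 on slide 3 (-0.63), where the normal YFP- array was 23912.

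YFP+ macrophages of tumors had less of 8 of 10 markers than YFP+ macrophages of normal pancreas, all but Vsig4 and Pf4. Over all genes 12.3% were called in either direction and 6.52% were lower. The median difference of the members was -2.34, against -0.071 over all genes, and the 8 markers called also did not overlap between the groups, a pattern that 12.7% of all genes had in the lower direction. The tumor minus normal comparisons of YFP- and of YFP+ cells share no arrays with each other, while each shares arrays with the YFP- minus YFP+ comparisons.

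Lyve1 stood at -1.32, -2.85, -3.37, -1.44 and -1.03 in tumor YFP+ arrays, against 0.46, 2.65 and 1.60 in normal YFP+ arrays. Every tumor array was below every normal array, and the gene was 11.9-fold lower in tumors (log2 difference -3.58 ± 0.94 SE, limma adjusted p = 0.0213). Folr2 stood at 0.75, -0.071, -0.36, 0.54 and 0.82 in tumor YFP+ arrays, against 2.39, 3.67 and 3.30 in normal YFP+ arrays, a 6.89-fold lower level in tumors (log2 difference -2.79 ± 0.54 SE, limma adjusted p = 0.00299). Gas6 was 3.72-fold lower (log2 difference -1.90 ± 0.29 SE, limma adjusted p = 0.00059) and Cbr2 8.09-fold lower (log2 difference -3.02 ± 0.49 SE, limma adjusted p = 0.000881). Cbr2, Gas6 and Folr2 had the smallest adjusted p of the members.

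Cd163 differed by -3.06, Timd4 by -2.95 and Igfbp4 by -1.76 (limma adjusted p 0.00778, 0.00944 and 0.00726). Sepp1, the selenium carrier, fell by 0.76 on the log2 scale (limma adjusted p = 0.0347) and Pf4 differed by -0.72 (limma adjusted p = 0.313). Without number 23916 the count of 8 became 3 (Folr2, Gas6 and Cbr2), and without any other single number it was 6 to 8. The call of Sepp1 was lost without any 1 number other than 23548 (adjusted p 0.0538 to 0.124) and with only the compared groups fitted (0.0515). Within slides that held both groups, 10 of 10 differences were negative on slide 1 (median -2.59) and slide 3 (-2.76), and 8 of 10 on slide 2 (-1.36), where the normal YFP+ array was 23912.

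Acinar markers moved with the tissue as well. They were lower in tumors for 15 of 15 in both populations, with a summed signal in YFP- arrays of 3.33 to 4.32 for tumors and 9.04 to 10.2 for normal pancreas. In YFP+ arrays it was 2.56 to 3.74 for tumors and 8.71 to 9.19 for normal pancreas. Ductal markers were higher in tumors for 7 of 10 in YFP- and for 3 of 10 in YFP+ cells, and mast cell markers for 6 of 6 in YFP- and 1 of 6 in YFP+ cells. Fibroblast markers were higher in tumors for 6 of 14 in YFP- cells, with 14 of 14 differences positive and a median of 1.72. In YFP+ cells 2 of 14 were higher and 1 was lower, with a median of -0.51. Their summed signal was 6.50 to 7.09 in tumor YFP- and 3.35 to 6.59 in normal YFP- arrays, and 3.14 to 4.03 in tumor YFP+ and 3.85 to 4.65 in normal YFP+ arrays. B and plasma cell markers were higher in tumors for 4 of 10 and lower for 1 in YFP- cells, and higher for 6 of 10 in YFP+ cells, and neutrophil markers were higher for 6 of 9 in YFP- and 5 of 9 in YFP+ cells. Macrophage identity genes had a median difference of 0.0028 in YFP- and 0.023 in YFP+ cells, with 1 higher and 1 lower of 14 in YFP- and 2 lower of 14 in YFP+ cells. The part of acinar and other RNA in the differences of the resident markers was not tested. With arrays scaled to the macrophage identity genes in place of the 75th percentile, an alternative chosen after seeing the data, 6 members in YFP- and 8 in YFP+ cells were lower in tumors.

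Vsig4, the complement receptor, was the exception among the members. It stood at 0.89, -1.54, -0.89, 2.07 and 1.22 in tumor YFP- arrays and at -1.75, -2.24, -2.48, -0.21 and -0.42 in tumor YFP+ arrays. Normal YFP- arrays were at -5.40, -0.013 and -0.45 and normal YFP+ arrays at -6.96, 0.14 and -0.86, the lowest of each being 23912, where the probe was not well above background. The tumor minus normal difference was 2.30 ± 1.51 in YFP- and 1.14 ± 1.51 in YFP+ cells (SE, limma adjusted p 0.318 and 0.736). Without number 23912 it was 0.58 in YFP- and -1.06 in YFP+ cells, so its sign in YFP+ cells rested on that array.

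Other genes known from resident macrophages split between tissues. In YFP- cells 4 of 32 were higher and 11 lower in tumors, and in YFP+ cells 1 of 32 was higher and 9 were lower. Over all 24278 genes, 1853 were higher and 2055 lower (8.46%) in YFP- cells. In YFP+ cells 1394 were higher and 1584 lower (6.52%). The counts of higher genes on the list are small, and the list was not tested against all genes in either direction. Cd209f, a C-type lectin, differed by -4.12 in YFP- and by -4.44 in YFP+ cells (limma adjusted p 8.74e-05 and 5.98e-05). Cd209g, another, was lower in tumors in both populations (limma adjusted p 0.000209 and 0.000202), but it was well above background on 2 of 5 tumor YFP- and 1 of 5 tumor YFP+ arrays, against 3 of 3 of each normal group, so the size of its difference is not measured. Retnla, the secreted resistin-like molecule alpha, averaged -0.13 in tumor YFP- and 4.02 in normal YFP- cells, and -0.42 in tumor YFP+ and 4.16 in normal YFP+ cells. Slco2b1, an organic anion transporter, and Ednrb, endothelin receptor B, were lower in tumors in both populations, with differences of -2.65 and -2.19 in YFP- and -2.97 and -2.24 in YFP+ cells. Colec12 differed by -2.74 in YFP- cells and was at least 6.71-fold lower in tumors in YFP+ cells, where 0 of 5 tumor arrays were well above background. Maf, a transcription factor of resident macrophages, and F13a1, the coagulation factor XIII A subunit, differed by -2.21 and -2.37 in YFP+ cells.

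The higher genes in YFP- cells were Marco, a scavenger receptor (2.47), Gata6 (2.15), Hmox1, haem oxygenase (1.08), and Axl, a receptor of Gas6 (0.996). Axl was also the 1 higher gene in YFP+ cells (0.83 ± 0.19 SE, limma adjusted p = 0.0107), while its ligand Gas6 was lower in tumors in both populations. Hmox1 and Axl were named after their values were seen. The complement genes C1qa, C1qb and C1qc and Apoe, also named after their values were seen, lay between -0.21 and 0.15 in both comparisons and did not pass the test.

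**Figure D3:**
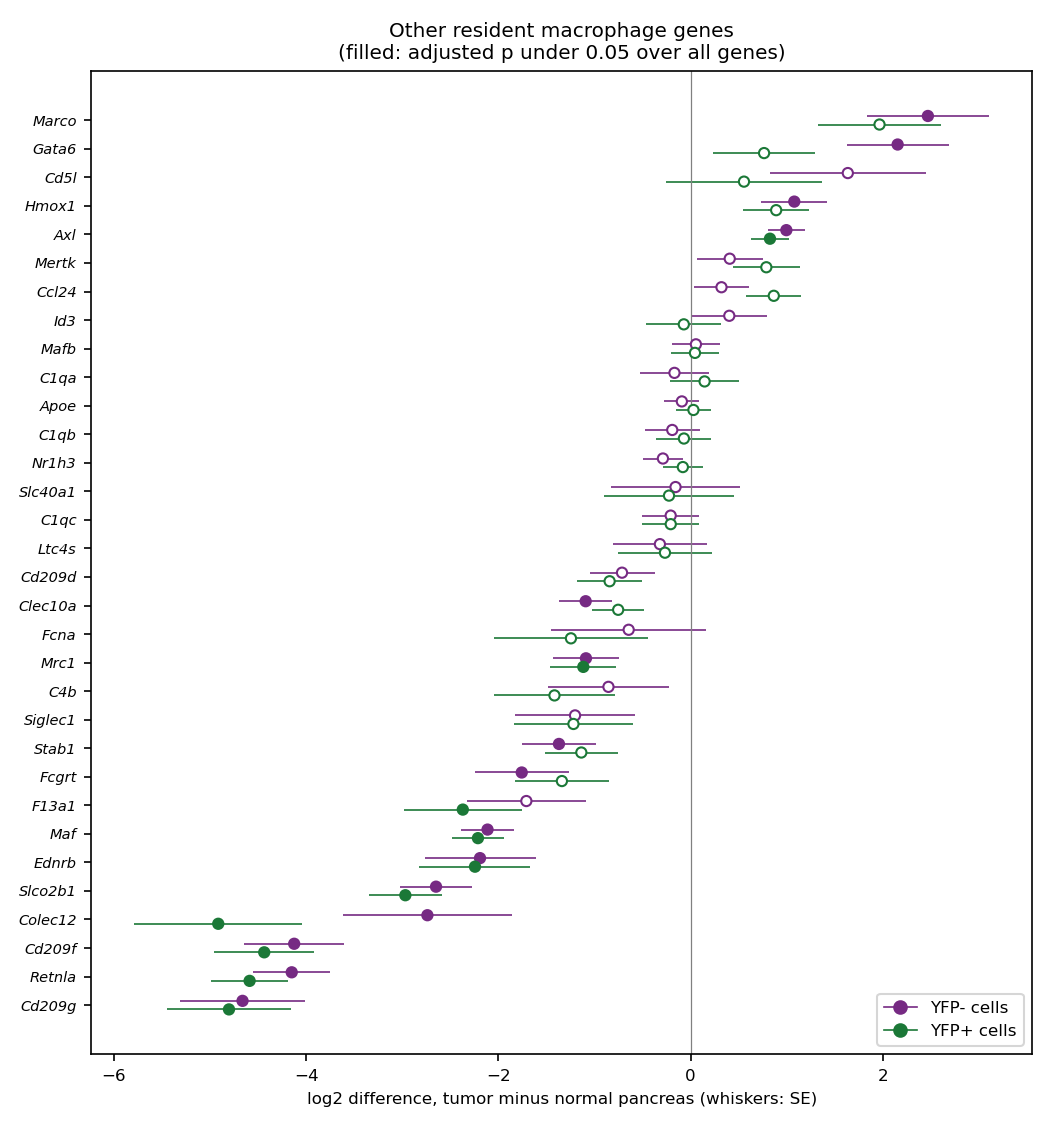
Log2 difference, tumor minus normal pancreas, with SE whiskers for 32 other resident macrophage genes in YFP- and YFP+ cells, sorted by the mean of both; filled points have an adjusted p under 0.05. Retnla and Cd209f lie below -4 in both populations, as does Cd209g, which most tumor arrays did not measure above background, and Marco, Gata6, Hmox1 and Axl are filled above 0 in YFP- cells.

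Most members varied together from array to array, with Igfbp4 and Vsig4 as partial exceptions. Over the 16 arrays all 45 pairs of members had a Pearson r above 0 with a median of 0.854, and after subtracting group means 40 of 45 did, with a median of 0.638. The pairs below 0 after that step were those of Igfbp4 with Lyve1 (-0.195), Folr2 (-0.088), Cd163 (-0.21), Gas6 (-0.092) and Cbr2 (-0.186). Its other pairs lay between 0.0135 (Pf4) and 0.408 (Timd4). Pairs with Vsig4 had an r of only 0.019 (Sepp1) to 0.344 (Pf4) before that step, and of 0.133 (Igfbp4) to 0.854 (Folr2) after it. These correlations are descriptions over arrays that share slides, scaling and the groups. The closest pair was Folr2 and Cbr2 (r = 0.989, Spearman's rho 0.997, and r = 0.968 after subtracting group means). Of 22119 genes searched for likeness to Folr2 over the 16 arrays, Cbr2, Etv1 (r = 0.986) and Cd163 (r = 0.985) came first.

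Lyve1 was most like Alox5 (r = 0.976), F13a1 and Cd163, and Timd4 most like Arhgef12 (r = 0.957), P2rx7 and S1pr1. For Cd163 the nearest genes were Folr2, Cbr2 and Lyve1, and for Gas6 they were Cbr2 (r = 0.971), Reps2 and Klf2. Vsig4 was most like Prg4 (r = 0.936, and 0.979 after subtracting group means), Bst1 and Ltbp1. Igfbp4 had Smad5 (r = 0.951), Sord and Gstm1, Pf4 had Stab1 (r = 0.937), Dgkz and Siglec1, and Sepp1 had Abcc5 (r = 0.937), Peak1 and Ctnnd1.

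**Figure D4:**
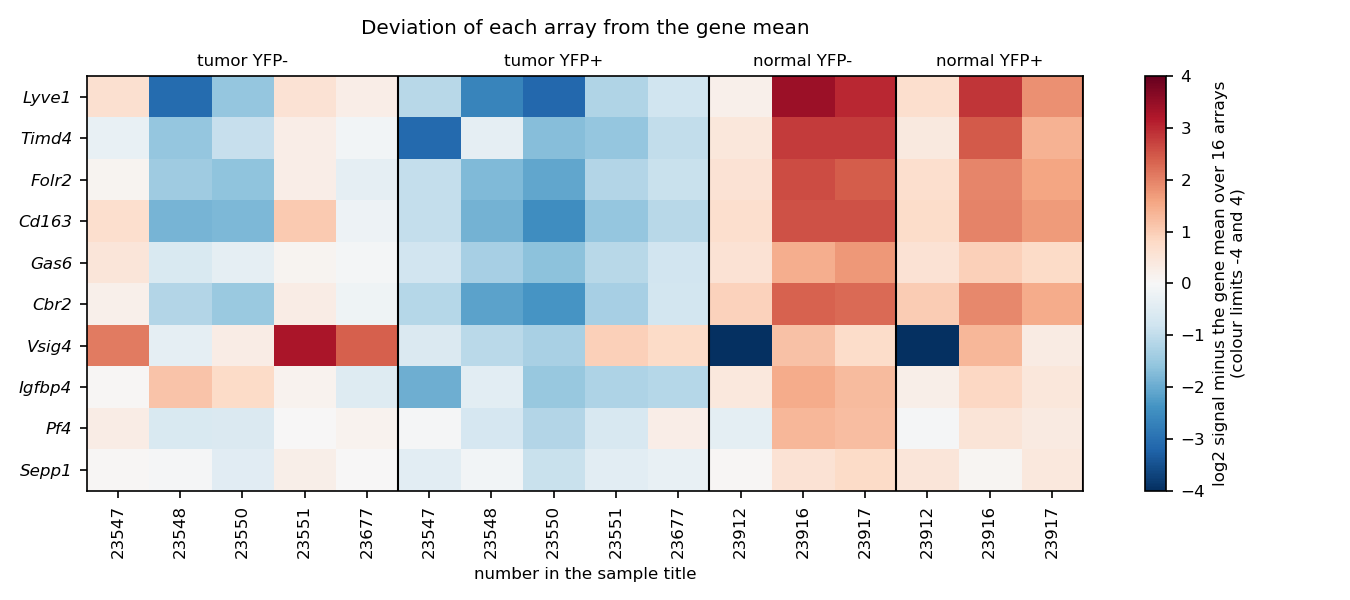
Log2 signal of each marker minus its mean over the 16 arrays, by array and group; red is above and blue below the gene's mean, with colours ending at -4 and 4. Tumor arrays 23548 and 23550 are blue for most markers, and arrays 23912 are paler than the other normal arrays and darkest blue for Vsig4.

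**Figure D5:**
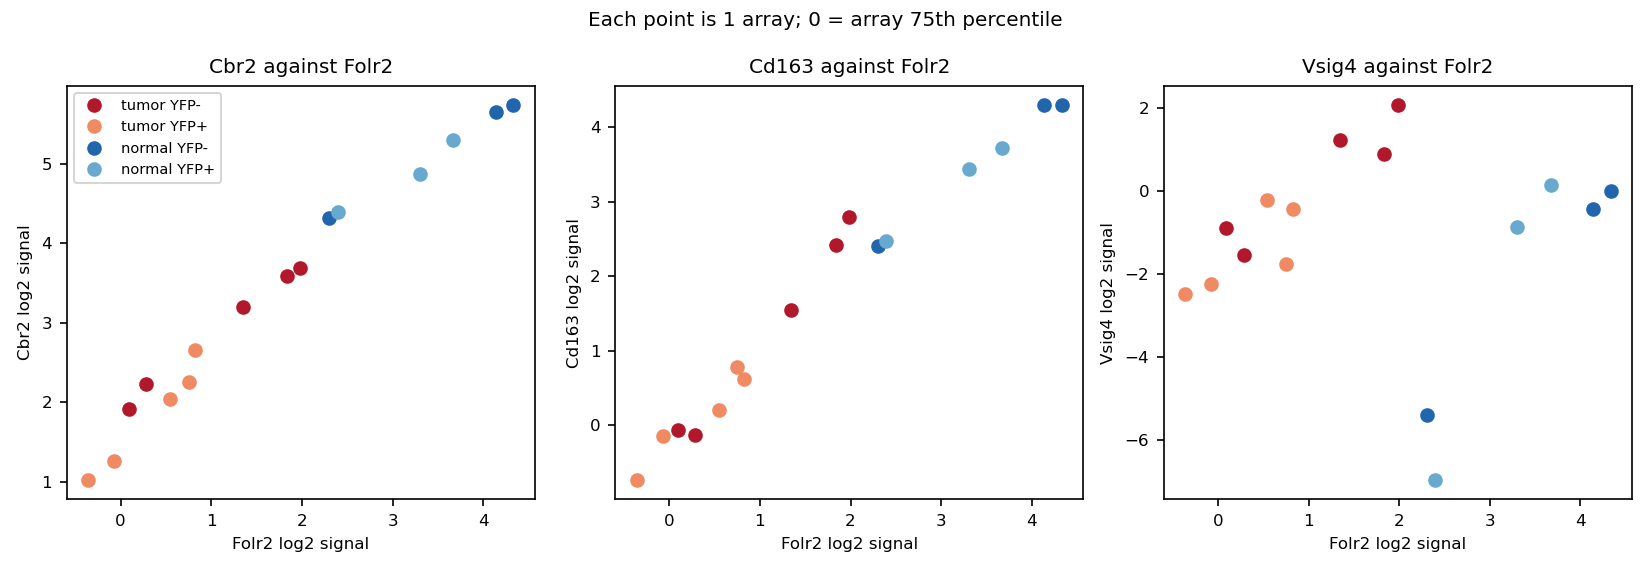
Cbr2, Cd163 and Vsig4 against Folr2 (log2 signal, 0 at each array's 75th percentile), 1 point per array, coloured by group. Cbr2 and Cd163 lie along 1 line over all 4 groups, while Vsig4 has the 2 arrays titled 23912 far below the others.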

How the data were processed

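Per the labels, Cy5-labelled cDNA amplified from total RNA of sorted macrophages was hybridised to Agilent mouse arrays. Per the file headers, the deposited scanner files hold the red channel's intensity, which the authors' scanner software (Agilent Feature Extraction 11.5.1.1 per the submitters' processing notes) had background-subtracted. A deposited value table holds log2 values that the authors had normalized by a method not given in the sources used here; its 16 columns matched their own arrays (r at least 0.9957), had a median of 9.02 each and the same distribution to within 0.0069, and it served as an alternative only.

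From the scanner files, control and outlier spots were left out, spots of a probe were averaged, and the log2 processed signal minus the array's 75th percentile was taken. Probes well above background on at least 3 of 16 arrays were kept (30567; 255 of them were dropped for a missing value) and the brightest probe stood for each gene. Of 39429 probes, 28330 were named by accession, 2204 by symbol and 174 by synonym through RefSeq, and 8721 kept the file's name. Group means were fitted with limma 3.58.1 in R 4.3.3 over all 16 arrays, two-sided, with Benjamini-Hochberg adjustment over 24278 genes and a threshold of 0.05. The steps were tested on simulated data. Replicate correlations within groups were 0.908 to 0.977, and array number limits the precision. The members and the lists were chosen with earlier results of these data known. Named genes are the 10 members, up to 8 other resident genes per comparison past the threshold by size, marker lists by count, and the 3 genes most like each member among those well above background on at least 8 arrays. A summed signal is log2 of the list's signals added up. Same-numbered arrays did not deviate together in every pair, so the numbers were not used as pairs.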

Additional observations from a re-analysis of the deposited data

How the results depend on the processing

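The direction of every called member difference was kept under every alternative run. The tumor YFP- minus tumor YFP+ count of 2 members became 1 with no filter on dim probes and 1 with only the compared groups fitted (Igfbp4), 4 with the title number as a replicate block (Cbr2 and Vsig4 added, adjusted p 0.0311 and 0.0276, with the SE of Vsig4 at 0.32 against 1.31), and 0 to 1 without 1 number. Over all genes the numbers were not shown to pair arrays, with same-number correlations of deviations of -0.29 to 0.314. The 10 members alone deviated on average to the same side in both arrays of 8 of 8 numbers (-0.66 in YFP- and -0.69 in YFP+ cells for 23550), and Cbr2, Vsig4, Cd163, Folr2, Sepp1, Gas6 and Igfbp4 were higher in YFP- cells in 5 of 5 tumor numbers, so a shared source of same-numbered arrays was neither shown nor excluded. The tumor YFP- minus normal YFP- count of 5 became 9 with array weights (array 23916 weighted 4.71) and 2 to 7 without 1 number, and the tumor YFP+ minus normal YFP+ count of 8 ranged from 3 to 8. In normal pancreas and in the difference between tissues the count was 0 under all alternatives run. The cause of these shifts was not tested.

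Signs turned only in uncalled differences. Without 1 number, Sepp1 in normal pancreas ranged from -0.062 (without 23916) to 0.41 and Vsig4 in YFP+ cells between tissues from -1.06 (without 23912) to 2.49. For the difference between tissues, leaving out 1 number gave -0.044 to 0.95 for Timd4, -0.56 to 0.062 for Pf4 (0.029 without 23916) and -0.0197 to 0.46 for Sepp1. The same difference was -0.032 for Lyve1 and -0.067 for Folr2 with array weights, and -0.082 for Timd4 and 0.076 for Pf4 with a slide block. Of the 790 member differences recomputed, 736 kept sign and call. Over all genes, calls between tissues in YFP- cells ran from 2240 (without 23916) to 9344 (array weights), in YFP+ cells from 1935 to 4504, in tumors from 354 to 844, in normal pancreas from 0 to 1155 (224 without 23912) and for the difference between tissues from 8 to 354. The share of higher calls in tumor YFP- minus normal YFP- moved to 58.2% with normexp, against 47.4%. Other resident genes called ranged from 0 to 3 in tumors, 6 to 18 between tissues in YFP- and 7 to 16 in YFP+ cells. Markers near background, Vsig4 on arrays 23912, Colec12 in tumor YFP+ cells and Cd209g in tumors, are limited by signal.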

Other observations

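In YFP- cells, genes of monocytes and of macrophages recently derived from them differed between tissues mostly in the direction opposite to most resident markers. Of 17 tested, 10 were higher in tumor YFP- than in normal YFP- cells and none was lower. There 13 differences were positive and 4 negative, with a median of 1.29. In tumor YFP+ against normal YFP+ cells the list was split, with 9 differences positive, 8 negative and a median of 0.32. Of these, 7 were called higher and 2 lower. Over all 24278 genes, 1853 were called higher in tumors in YFP- cells and 1394 in YFP+ cells. Chil3, a chitinase-like protein of monocytes and alternatively activated macrophages, averaged 3.05 in tumor YFP- and -3.10 in normal YFP- cells (log2 difference 6.14 ± 0.48 SE), and 2.92 in tumor YFP+ and -2.46 in normal YFP+ cells (5.38 ± 0.48 SE). Hp, haptoglobin, differed by 3.94 in YFP- and 3.47 in YFP+ cells, and Vcan, versican, by 3.11 in YFP- and 3.38 in YFP+ cells. The lower genes in YFP+ cells, named after their values were seen, were Ccr2, the monocyte chemokine receptor (-1.74 ± 0.33 SE, limma adjusted p = 0.0024), and Ear2, an eosinophil-associated ribonuclease also found in monocytes (3.33 in tumor YFP+ and 4.83 in normal YFP+ cells, limma adjusted p = 0.00933). These cells were sorted as macrophages, and neutrophil markers were also higher in tumors in both populations.

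In normal pancreas the same list had 15 of 17 differences below 0 between YFP- and YFP+ cells, with a median of -0.93, and 0 of 17 passed the limma test while 11 had an unadjusted p under 0.05. Over all 24278 genes, 1856 had such an unadjusted p. Itgax, an integrin chain of dendritic cells and some macrophages, averaged -0.70 in normal YFP- and 1.17 in normal YFP+ cells (log2 difference -1.87 ± 0.39 SE, limma adjusted p = 0.114). In tumors the median of the list between YFP- and YFP+ cells was -0.11, with 0 of 17 past the limma test and 3 with an unadjusted p under 0.05, against 2512 of 24278 genes. The difference between tissues passed for 0 of 17, with a median of 0.76. It had an unadjusted p under 0.05 for 7 of 17, against 1446 of 24278 genes.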
